A study of Mus musculus with 6 samples.

Results

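Aldehyde dehydrogenases oxidise aldehydes to carboxylic acids, and 9 of their genes were examined in mouse retinas after light damage. They were taken by gene symbol as Aldh1a1, Aldh1a2, Aldh1a3, Aldh1a7, Aldh1l1, Aldh1l2, Aldh2, Aldh3a2 and Aldh9a1, with every probe set that the platform annotation assigned to that symbol alone. This gave 17 of the 45101 probe sets in the table and 9 of 18193 genes. They were chosen by symbol at a time when the differences between light damaged and dark adapted retinas on these same arrays were known, so their differences between the groups are given as a description and carry no p-value. P-values are printed only for genes outside these 9. How many of the 9 passed a threshold is given only as a count beside the share of all genes. The lists of other genes were also chosen with earlier results of these data known, so their p-values too serve as a description.

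The light damaged group comprised 3 arrays of retinas from BALB/c mice, an albino strain, which were kept in the dark for 1 week, exposed for 6 h to white fluorescent light of 6000 lux, and sampled 24 h after it. The dark adapted group comprised 3 arrays of retinas from BALB/c mice that were likewise kept in the dark for 1 week and received no damaging light. The labels give neither the age nor the sex of the mice, nor the number of retinas behind an array, and do not say that replicates were separate animals, so p-values measure the variation among these arrays only, and that variation may be technical. Affymetrix arrays read each gene through short oligonucleotide probe sets, and the values are log2 levels made with RMA (robust multi-array average). Array medians lay between 6.15 and 6.18, and precision is limited by having 3 arrays in a group. Rod markers marked the tissue as retina: the mean log2 level of 7 measured rod genes was 11.13 to 11.53 in light damaged and 11.70 to 12.20 in dark adapted retinas. In whole retinas a change in the number of cells of a type cannot be told apart from a change of RNA per cell.

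The members fall into 4 classes by the substrate their enzymes are known for. Aldh1a1, Aldh1a2 and Aldh1a3 encode the retinaldehyde dehydrogenases, which make retinoic acid, the ligand of the nuclear retinoic acid receptors. Retinol dehydrogenases such as Rdh10 supply their substrate and Cyp26 enzymes degrade the product. In the developing eye these genes are known for regional patterns, with Aldh1a1 in dorsal and Aldh1a3 in ventral retina. Aldh1a7 is a rodent paralog of Aldh1a1. Aldh1l1 encodes the cytosolic formyltetrahydrofolate dehydrogenase, which removes formyl groups from the folate pool as carbon dioxide, and is widely used as a marker of astrocytes; Aldh1l2 encodes the mitochondrial form. Aldh2 encodes a mitochondrial enzyme that clears acetaldehyde and lipid peroxidation products, Aldh3a2 encodes the fatty aldehyde dehydrogenase of the endoplasmic reticulum, and Aldh9a1 encodes a dehydrogenase of aminoaldehydes.

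Aldh1l1 stood out among the members. Its brighter probe set, 1424400_a_at, read 9.36, 9.27 and 9.33 (log2 level) in light damaged retinas, against 7.36, 6.84 and 6.94 in dark adapted retinas. All light damaged values lay above all dark adapted ones, and they lay closer together than the dark adapted values. The mean was 9.32 ± 0.05 in light damaged and 7.05 ± 0.28 in dark adapted retinas (SD, n = 3 each), a log2 change of 2.27 ± 0.16 (SE) or 4.83-fold. Its change ranked 25 among the 18193 genes ordered from the most positive. Between arrays of the same replicate number the difference was 2.00, 2.43 and 2.39. The second probe set of Aldh1l1, 1424401_at, did not show this: it read 5.28, 5.33 and 5.19 in light damaged retinas, against 5.23, 5.33 and 5.29 in dark adapted retinas, a change of -0.02 ± 0.11 (SE). These levels were little above the lower quartile of the arrays, which was 4.98 to 5.11. The 4.83-fold difference therefore holds for the brighter probe set alone, and the mean of both probe sets gave 1.13.

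Aldh3a2, the fatty aldehyde dehydrogenase gene, had the next most positive change of the 9 genes. It had 1 probe set, with levels of 7.68, 7.80 and 7.78 in light damaged retinas, against 6.65, 7.03 and 6.97 in dark adapted retinas. The groups did not overlap, and the light damaged values again lay close together. The log2 change was 0.87 ± 0.14 (SE), 1.83-fold, and the 3 same-numbered differences were 1.03, 0.78 and 0.81. On arrays centred on reference genes the change was 0.48.

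The promoters of Aldh1l1 and Aldh3a2, the members with the most positive changes, are shown to set their sequences side by side. The RefSeq table of the build GRCm38.p6 held promoters of 6 of the 9 members, and the 250 bases before the start site are printed 5′ to 3′ on the strand of the gene. For Aldh1l1 this is chr6:90550543-90550792 on the plus strand, and for Aldh3a2 chr11:61267187-61267436 on the minus strand. Capitals mark matches, on either strand, to any of 7 motifs that were chosen after the values were seen: STAT (TTCNNNGAA), C/EBP (TTGCNNAA), AP-1 (TGANTCA), the core of the antioxidant response element (TGACNNNGC), the E-box (CACGTG), the CCAAT box (CCAAT) and the GC box (GGGCGG).
Aldh1l1: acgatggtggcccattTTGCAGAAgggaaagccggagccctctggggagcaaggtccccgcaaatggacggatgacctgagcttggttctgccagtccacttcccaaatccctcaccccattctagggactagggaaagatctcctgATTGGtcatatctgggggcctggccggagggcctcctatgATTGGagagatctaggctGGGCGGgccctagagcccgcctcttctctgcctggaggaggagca
Aldh3a2: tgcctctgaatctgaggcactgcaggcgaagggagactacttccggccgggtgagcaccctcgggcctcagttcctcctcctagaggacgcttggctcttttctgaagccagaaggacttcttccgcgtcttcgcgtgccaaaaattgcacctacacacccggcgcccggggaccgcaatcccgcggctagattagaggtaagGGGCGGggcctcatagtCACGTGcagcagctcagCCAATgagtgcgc
Both windows held a CCAAT box and a GC box, motifs found in 33.8% and 32.7% of all 32851 promoter windows of this length. The Aldh1l1 window also held a C/EBP match, 234 to 227 bases before the start site, as did 9.56% of all windows. An E-box match lay 30 to 25 bases before the start of Aldh3a2, a motif in 6.02% of all windows. Neither window held the STAT, AP-1 or antioxidant letters, which 7.02%, 6.75% and 10.2% of all windows hold. A match is a description of letters and not a site of binding.

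**Figure D1:**
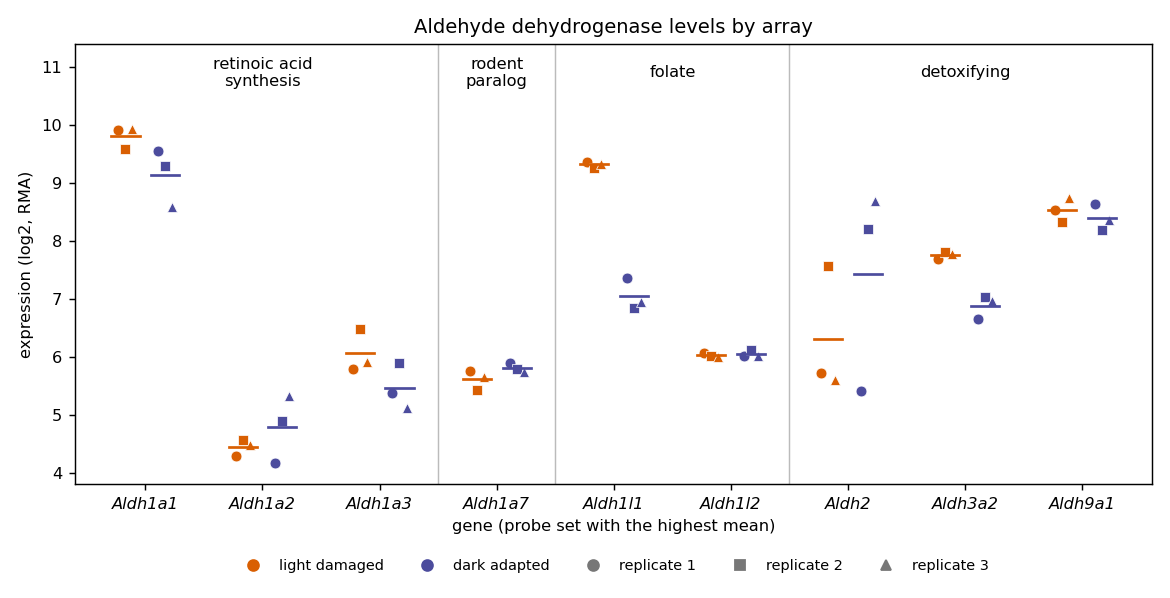
Log2 expression (RMA) of the 9 aldehyde dehydrogenase genes on each array, with light damaged arrays left of dark adapted arrays; marker shapes give the replicate number and horizontal bars the group means of 3 arrays. Aldh1l1, Aldh3a2 and Aldh1a1 show no overlap between the groups, while Aldh2 ranges from 5.42 to 8.68 across arrays of both groups.

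Of the 9 genes, 2 passed an adjusted p of 0.05 in limma's fit across all genes, both higher in light damaged retinas; 2.01% of all genes passed in either direction and 1.74% were higher. Of the 17 probe sets, 2 passed in the fit across all probe sets, both higher, where 1.02% passed in either direction and 0.913% were higher. With the replicate number as a block, 3 of the 9 genes passed (8.87% of all genes) and 4 of the 17 probe sets (4.68% of all probe sets), all higher. No label states a pairing behind this block, which was chosen from these same values. As the genes were proposed with this comparison known, nothing is read from these counts. The median change of the 9 genes was 0.14, beside 0.03 over all genes, and the changes ranged from -1.13 to 2.27. In 3 of the 9 genes all light damaged values lay above all dark adapted ones, as in 11.9% of all genes (15.6% in either direction), and in 0 did they all lie below. The same held for 4 of the 17 probe sets, beside 8.99% of all probe sets (13.2% in either direction).

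Of the retinoic acid synthesis genes, Aldh1a1 and Aldh1a3 had positive changes, and Aldh1a2 was dim and gave no clear direction. Aldh1a1 read 9.92, 9.58 and 9.94 in light damaged retinas, against 9.55, 9.29 and 8.58 in dark adapted retinas. The groups did not overlap, but the lowest light damaged and the highest dark adapted value nearly met. Its log2 change was 0.67 ± 0.25 (SE), 1.60-fold, with same-numbered differences of 0.37, 0.29 and 1.36. The third difference was the largest, and dark adapted replicate 3, at 8.58, was the lowest of the 6 arrays. Aldh1a3 had 3 probe sets. The brightest read 5.80, 6.49 and 5.90 in light damaged retinas, against 5.37, 5.89 and 5.11 in dark adapted retinas, with light damaged replicate 1 just below dark adapted replicate 2. A second probe set, 1448789_at, separated the groups, with 5.82, 6.39 and 5.97 in light damaged retinas, against 5.47, 5.55 and 5.24 in dark adapted retinas. The changes of these 2 probe sets were 0.60 ± 0.25 and 0.64 ± 0.18 (SE), and that of the third was 0.20 ± 0.15. On the brightest probe set replicate 2 was the highest array of each group, and the same-numbered differences were 0.43, 0.59 and 0.79. Aldh1a2 was dim: it read 4.29, 4.56 and 4.48 in light damaged retinas, against 4.17, 4.89 and 5.32 in dark adapted retinas, below the lower quartile on 5 of the 6 arrays. Its change of -0.35 ± 0.27 (SE) was within the spread of the dark adapted arrays (SD 0.58), so no direction is given.

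Aldh1a7 differed from its paralog Aldh1a1 in the sign of its change. It read 5.76, 5.42 and 5.65 in light damaged retinas, against 5.90, 5.78 and 5.73 in dark adapted retinas, a change of -0.19 ± 0.14 (SE) with overlapping groups. Each gene had a single probe set, and how far the probes of one also bind RNA of the other was not tested, so both values are uncertain to that extent. Their sequences are shown because the genes are closely alike also in the bases next to the start site. The windows are chr19:20601718-20601967 on the plus strand, the downstream of 2 RefSeq promoters of Aldh1a1, and chr19:20727557-20727806 on the minus strand for Aldh1a7. Capitals mark the longest run that both share.
Aldh1a1: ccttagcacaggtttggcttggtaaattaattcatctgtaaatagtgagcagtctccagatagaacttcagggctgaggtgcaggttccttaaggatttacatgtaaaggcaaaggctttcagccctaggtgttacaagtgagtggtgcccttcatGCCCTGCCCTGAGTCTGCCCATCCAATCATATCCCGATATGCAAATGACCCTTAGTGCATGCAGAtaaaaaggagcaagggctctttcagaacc
Aldh1a7: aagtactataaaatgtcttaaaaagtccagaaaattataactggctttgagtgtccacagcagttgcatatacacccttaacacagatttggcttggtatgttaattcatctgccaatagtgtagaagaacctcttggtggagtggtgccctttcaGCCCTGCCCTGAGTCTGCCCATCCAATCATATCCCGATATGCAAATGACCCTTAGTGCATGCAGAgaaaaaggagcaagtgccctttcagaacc
The shared run was 65 bases long and ended 29 bases before the start site in both genes. Of the 100 bases next to the start site 94 were identical, and of all 250 bases compared without gaps 129 were. Within the run both windows held a CCAAT box, 72 to 68 bases before the start site.

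Aldh1l2, the mitochondrial folate enzyme, was nearly flat. It read 6.07, 6.02 and 6.00 in light damaged retinas, against 6.02, 6.12 and 6.01 in dark adapted retinas. The groups overlapped, and the change was -0.02 ± 0.12 (SE). Aldh9a1 had 2 probe sets of opposite sign, 0.14 ± 0.17 and -0.08 ± 0.20 (SE). The brighter read 8.53, 8.33 and 8.74 in light damaged retinas, against 8.63, 8.18 and 8.36 in dark adapted retinas, and the groups overlapped.

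Aldh2 varied between arrays more than between groups. Its brightest probe set, 1434987_at, read 5.72, 7.57 and 5.60 in light damaged retinas, against 5.42, 8.20 and 8.68 in dark adapted retinas. Light damaged replicate 2 and dark adapted replicates 2 and 3 were high, and the other 3 arrays were low. The probe set 1434988_x_at had the same 3 arrays high by a smaller step, with 6.50, 7.18 and 6.40 in light damaged retinas, against 6.57, 7.08 and 7.19 in dark adapted retinas. The remaining 3 probe sets of Aldh2 did not split the arrays this way. The probe set 1448143_at, for example, read 6.87, 6.73 and 6.23 in light damaged retinas, against 6.47, 6.30 and 6.35 in dark adapted retinas. In the fit over probe sets the 5 changes were -1.13 ± 0.87, -0.26 ± 0.25, 0.24 ± 0.18, 0.03 ± 0.11 and -0.09 ± 0.17 (SE), so no direction can be given for Aldh2. The cause of the split was not tested.

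**Figure D2:**
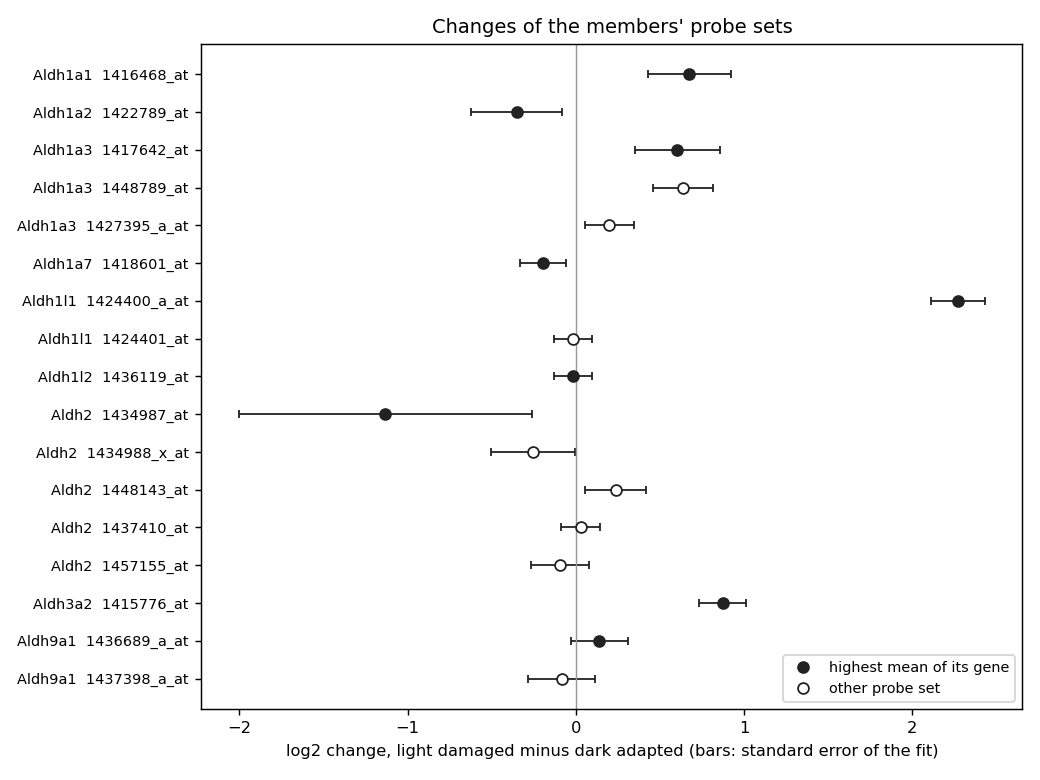
Log2 change, light damaged minus dark adapted, of each of the 17 probe sets, with bars for the standard error of the fit; filled points are the probe set with the highest mean of its gene and open points the others. The 2 probe sets of Aldh1l1 lie at 2.27 and -0.02, and the brightest of Aldh2 has the widest bar.

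The retinoic acid synthesis genes were then set against the folate and detoxifying genes as classes, through the mean of the members' deviations from their dark adapted means on each array. In the retinoic acid synthesis class (3 genes) it was 0.21, 0.41 and 0.31 on light damaged arrays, against -0.10, 0.23 and -0.13 on dark adapted arrays. In the folate and detoxifying class (5 genes) it was 0.31, 0.64 and 0.33 on light damaged arrays, against -0.35, 0.11 and 0.23 on dark adapted arrays. Both classes were higher on every light damaged array except that light damaged replicate 1 of the retinoic acid class lay just below dark adapted replicate 2. The difference, retinoic acid synthesis minus folate and detoxifying, was -0.11, -0.23 and -0.02 on light damaged arrays, against 0.25, 0.11 and -0.36 on dark adapted arrays. Its light damaged mean of -0.12 ± 0.10 lay within the spread of the dark adapted arrays (SD 0.32, n = 3). Single members moved it: leaving out Aldh1l1 turned the sign, to 0.34, and leaving out Aldh2 gave -0.51. Among the folate and detoxifying genes the 2 folate genes averaged 1.13 on light damaged arrays, all from Aldh1l1, and the 3 detoxifying genes -0.04, with Aldh3a2 and Aldh2 at opposite ends.

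The remaining aldehyde dehydrogenase genes showed no call. Of 11 measured, 0 passed limma's adjusted p over all genes, where 2.01% of all genes passed, and their median change was 0.06. In 2 of the 11 limma's unadjusted p was under 0.05, beside 2002 of all 18193 genes. Those 2 were Aldh18a1, which encodes an enzyme of proline synthesis, and Aldh3a1, which encodes the abundant dehydrogenase of the cornea. Aldh18a1 read 7.34, 7.25 and 7.36 in light damaged retinas, against 6.88, 6.77 and 6.50 in dark adapted retinas (change 0.60, limma adjusted p = 0.0878, and 0.0135 with the replicate block). Aldh3a1 read 7.33, 7.14 and 8.62 in light damaged retinas, against 5.99, 6.38 and 6.84 in dark adapted retinas (change 1.29, limma adjusted p = 0.185, and 0.00159 with the replicate block). In both, all light damaged values lay above all dark adapted ones, as in 11.9% of all genes. With the block both rose, where 8.87% of all genes passed in either direction. The other 4 probe sets of Aldh18a1 gave -0.22 to 0.59, and the mean of its probe sets gave 0.24 (limma adjusted p = 0.423). The highest Aldh3a1 value came from 1 array, light damaged replicate 3, without which the change was 0.83 (limma adjusted p = 0.354).

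Genes that handle retinoids around the Aldh1a enzymes gave 2 calls. Of 25 measured genes for retinoid handling and response 2 rose, 0 fell and 23 missed the threshold, and the median change was 0.14, beside 2.01% of all genes called and a median of 0.03. Rdh10, which makes retinaldehyde from retinol, read 9.80, 9.75 and 9.75 in light damaged retinas, against 9.02, 8.75 and 8.52 in dark adapted retinas (change 1.00, limma adjusted p = 0.0152), and its second probe set gave 0.90. Tgm2, a transglutaminase gene known to be induced by retinoic acid, read 7.28, 7.31 and 7.62 in light damaged retinas, against 6.45, 6.40 and 6.83 in dark adapted retinas (change 0.84, limma adjusted p = 0.0457), with 0.05 to 1.32 on its other probe sets. The Rdh10 call was lost without light damaged replicate 1, 2 or 3 or dark adapted replicate 2 (limma adjusted p up to 0.0839), and the Tgm2 call without any 1 array other than dark adapted replicate 3 (up to 0.199). The retinoic acid receptor genes Rara, Rarb and Rarg had changes of -0.05, 0.09 and -0.10, and the degrading enzymes Cyp26a1 and Cyp26b1 had 0.31 and 0.11; these 5, and the next gene, were named after their values were seen. Rdh12, a retinol dehydrogenase of photoreceptors, averaged 10.13 ± 0.22 in light damaged and 11.24 ± 0.45 in dark adapted retinas (SD, n = 3 each), with a change of -1.11 that fell short without the block (limma adjusted p = 0.0559) and passed with it (limma adjusted p = 0.000838). Rod markers moved the same way: Nrl, a rod transcription factor gene, fell by 1.04 (limma adjusted p = 0.0378), while the other 6 missed the threshold. The 7 rod markers had a median of -0.69. With the block 5 of the 7 fell, where 8.87% of all genes passed in either direction. The part of rod markers in the Rdh12 values was not tested.

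The folate and one-carbon genes around Aldh1l1 gave 1 call. Of 28 measured, 1 rose, 0 fell and 27 missed the threshold, where 2.01% of all genes passed, and the median change was 0.15. With the replicate block 7 rose and 0 fell, where 8.87% of all genes passed in either direction. In 10 of the 28 all light damaged values lay above all dark adapted ones, as in 11.9% of all genes, and in 0 below. The called gene was Gldc, the glycine decarboxylase of the glycine cleavage system, with 8.13, 7.89 and 8.03 in light damaged retinas, against 7.45, 7.13 and 7.12 in dark adapted retinas (change 0.78, limma adjusted p = 0.0347). It lost the call without any 1 array other than dark adapted replicate 1 (limma adjusted p up to 0.161). Mthfd1, the cytosolic enzyme that makes formyltetrahydrofolate, the substrate of the Aldh1l1 enzyme, read 8.90, 9.11 and 9.07 in light damaged retinas, against 8.71, 8.55 and 8.36 in dark adapted retinas (change 0.49, limma adjusted p = 0.171, and 0.0409 with the block).

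Other enzymes of aldehyde and alcohol metabolism gave 3 calls. Of 26 measured genes 3 rose, 0 fell and 23 missed the threshold, and the median change was 0.19, where 2.01% of all genes passed. With the block 5 of the 26 rose, where 8.87% of all genes passed. Aox1, an aldehyde oxidase gene, read 6.45, 6.81 and 6.82 in light damaged retinas, against 5.25, 5.60 and 5.33 in dark adapted retinas (change 1.30, 2.46-fold, limma adjusted p = 0.00561). Akr1b8, an aldo-keto reductase gene, read 7.43, 7.57 and 7.85 in light damaged retinas, against 6.39, 6.82 and 6.52 in dark adapted retinas (change 1.04, limma adjusted p = 0.0201). Maoa, whose enzyme makes aldehydes from monoamines, read 7.70, 7.72 and 7.83 in light damaged retinas, against 6.99, 6.93 and 7.17 in dark adapted retinas (change 0.72, limma adjusted p = 0.03). In all 3 genes the groups did not overlap. In 8 of the 26 genes all light damaged values lay above all dark adapted ones, beside 11.9% of all genes, and in 0 below. Aox1 kept its call with any 1 array left out, losing it only on arrays centred on reference genes (limma adjusted p = 0.0505). Akr1b8 lost its call without light damaged replicate 2 or 3 or dark adapted replicate 3 (limma adjusted p up to 0.102), and Maoa without any 1 array other than dark adapted replicate 3 (up to 0.151). The second probe set of Maoa gave 0.10, and the call was also lost on the mean of both, with a change of 0.41 (limma adjusted p = 0.111), and after quantile normalization (limma adjusted p = 0.0523).

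**Figure D3:**
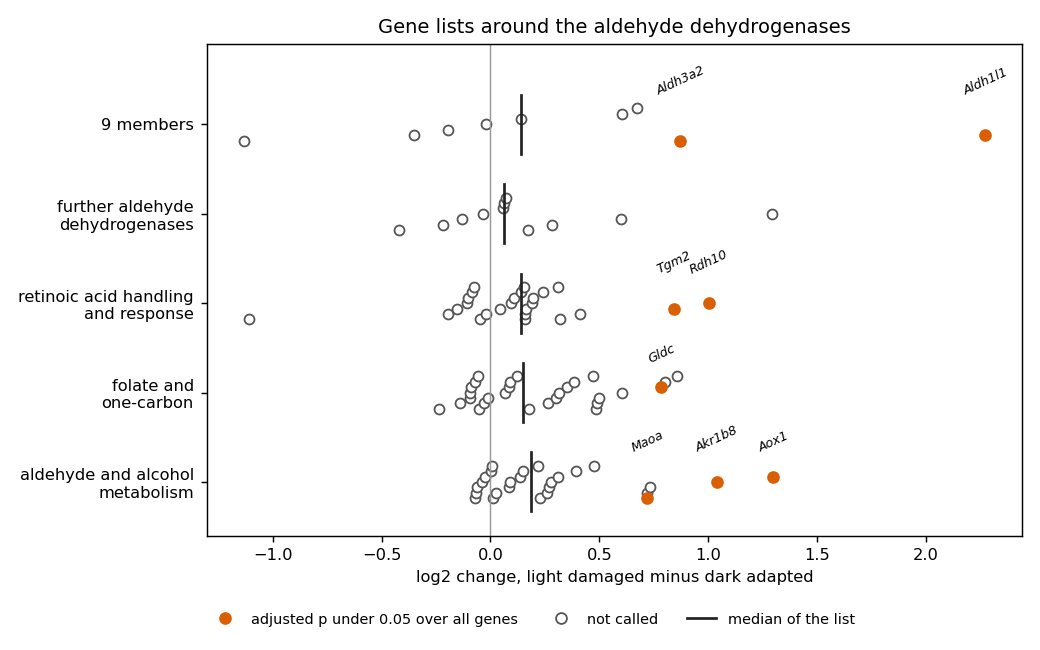
Log2 change, light damaged minus dark adapted, of each gene in the 9 members and in 4 lists around them; filled points passed an adjusted p of 0.05 over all genes, open points did not, and vertical bars are list medians (0.06 to 0.19). Vertical scatter within a list only separates the points. Aldh1l1 lies at 2.27, beyond every gene of the 4 lists.

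Glial genes moved beside Aldh1l1 in both directions. Of 15 measured Müller glia markers 3 rose, 0 fell and 12 missed the threshold, and the median change was 0.08. Under the block there were 7 higher and 3 lower calls. Of all genes 2.01% passed, and 8.87% with the block. The 3 that rose, named after their values were seen, were Crym, which encodes a thyroid hormone binding protein, with a change of 2.82 (limma adjusted p = 0.000795), Vim, an intermediate filament gene, with 1.67 (limma adjusted p = 0.002), and Sox2, a transcription factor gene, with 1.12 (limma adjusted p = 0.0329). The mean log2 level of the list was 9.71 to 10.02 in light damaged and 9.34 to 9.65 in dark adapted retinas, its summed linear signal 21168 to 24833 against 16981 to 21744, and no marker lay below the lower quartile on all arrays. Only 8 of the 15 changes were positive, so the higher mean does not show a rise of the list as a whole. Of 8 astrocyte markers measured besides Aldh1l1, Gfap alone rose, where 2.01% of all genes passed. The mean log2 level of these 8 markers was 7.84 to 8.06 in light damaged and 7.69 to 7.81 in dark adapted retinas. Only 3 of the 8 changes were positive and their median was -0.10, so here too the higher mean does not show a rise of the list. Their summed signal was 4771 to 6172 against 4493 to 6330, and 1 marker lay below the lower quartile on all arrays. Gfap, an intermediate filament gene, read 9.25, 8.70 and 8.38 in light damaged retinas, against 7.03, 7.25 and 6.82 in dark adapted retinas (change 1.75, limma adjusted p = 0.00693). Glul, the glutamine synthetase gene of Müller cells, read 11.44, 10.70 and 10.96 in light damaged retinas, against 12.30, 11.90 and 11.86 in dark adapted retinas (change -0.99, limma adjusted p = 0.0652). Its second probe set changed by -1.23 and passed in the fit over all probe sets (limma adjusted p = 0.0416). In that fit the first probe set did not pass (limma adjusted p = 0.109). Rlbp1, a retinaldehyde carrier gene of Müller cells, changed by -0.50 (limma adjusted p = 0.625). With the block Glul and Rlbp1 passed (limma adjusted p = 0.000775 and 0.0329). What part glial cell number has in the Aldh1l1 values was not tested.

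Markers of the retinal pigment epithelium, a neighbouring tissue that can adhere to dissected retinas, were also followed. Of 12 genes 0 passed limma's adjusted p, where 2.01% of all genes passed. In 2 limma's unadjusted p was under 0.05, beside 2002 of all 18193 genes. With the block 1 rose, where 8.87% of all genes passed. The mean log2 level of these 12 genes was 6.68 to 7.28 in light damaged and 6.57 to 7.02 in dark adapted retinas. Their summed signal was 1618 to 2925 against 1360 to 1980, and 1 lay below the lower quartile on all arrays. Lens markers, followed because lens can be carried along at dissection, varied widely between arrays of both groups. Each lens gene measured was highest on replicate 3 in either group, and so was Aldh3a1. Of 7 lens genes 0 passed limma's adjusted p and 0 had an unadjusted p under 0.05. With the block 3 fell, where 8.87% of all genes passed in either direction. The mean log2 level of the 7 genes was 9.76 to 11.66 in light damaged and 10.26 to 12.16 in dark adapted retinas. The part of these tissues in the Aldh1a and Aldh3a1 values was not tested.

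The genes whose levels followed Aldh1l1 most closely over the 6 arrays were Chl1, a neural adhesion molecule, Ipo5, a nuclear import receptor, Cebpd, a transcription factor, Timm8a1, a chaperone of mitochondrial import, S100a13, a calcium-binding protein, and Pold4, a subunit of DNA polymerase delta. Pearson's r with Aldh1l1 was 0.999 for Chl1, Ipo5 and Cebpd, 0.999 for Timm8a1, 0.998 for S100a13 and 0.997 for Pold4, as a description of 6 arrays that fall into 2 groups. Of the other 18192 genes 48 had an r above 0.99. Chl1 read 7.71, 7.56 and 7.64 in light damaged retinas, against 5.61, 5.09 and 5.34 in dark adapted retinas, a change of 2.29 ± 0.16 (SE), and its other 3 probe sets gave -0.47 to 0.95. The changes of the others ranged from 0.82 for Timm8a1 to 4.27 for Cebpd, whose second probe set gave 0.58. In Aldh1l1, Chl1, Ipo5, Cebpd, Timm8a1, S100a13 and Pold4 alike, dark adapted replicate 1 was the highest of the dark adapted arrays. The 6 genes were picked by their r with Aldh1l1 on these same arrays, so this likeness follows largely from the choice.

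**Figure D4:**
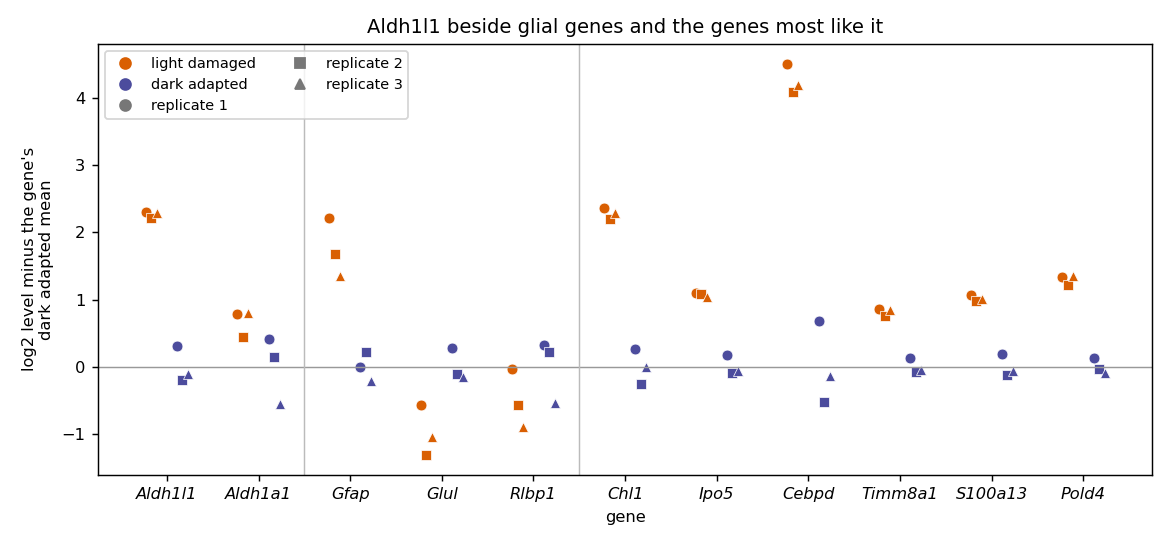
Log2 level minus the gene's own dark adapted mean on each array, for Aldh1l1 and Aldh1a1, for 3 glial genes, and for the 6 genes with the highest Pearson r with Aldh1l1 over 6 arrays; light damaged arrays stand left of dark adapted arrays. Glul lies below its dark adapted arrays while Aldh1l1 and Gfap lie above theirs.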

How the data were processed

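Total RNA of retinas was measured on 6 Affymetrix arrays, 3 light damaged and 3 dark adapted, grouped by sample titles. The deposited log2 values were made by the authors with RMA, per the submitters' processing notes; its version and a genome build are not given in the sources used here. RMA normalizes between arrays, so a change of total RNA would not be seen. Of 45101 probe sets, 64 controls were left out; 34945 had 1 gene in GEO's platform annotation, 932 several and 9160 none. The probe set with the highest mean stood for its gene (18193 genes). Groups were compared with limma 3.58.1 (lmFit, eBayes) in R 4.3.3, over all genes and over all 45037 other probe sets, with Benjamini-Hochberg adjustment; the fit was tested on simulated data. Changes are light damaged minus dark adapted. Folds are computed as 2 to the power of the change.

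The 9 members, the lists and the alternatives were chosen with earlier results of these data known. Genes named are the members, up to 6 called genes per list with the largest change, or the smallest p until 2 were named, the 6 genes most like Aldh1l1, and Gfap, Glul and Rlbp1. Outside this rule, and after their values were seen, the text names Rara, Rarb, Rarg, Cyp26a1, Cyp26b1, Rdh12, Nrl, Crym, Vim and Sox2. Both groups carry replicate numbers 1 to 3 in their titles. Over genes, deviations from the group means correlated at 0.746, 0.629 and 0.447 between arrays of the same number. Between other arrays they correlated at -0.486 to 0.0292. On that ground the numbers were treated as pairs, and no label states a pairing. Deviations within a group cancel for each gene, so positive correlations at the same number push the others down. The block was chosen from the same values that it then fits, so p-values with the block are a description. Values of single probe sets come from the fit over probe sets.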

Additional observations from a re-analysis of the deposited data

How the results depend on the processing

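With the replicate block, 1613 genes passed in place of 365, with 4 in place of 2 member probe sets, 2 in place of 0 further aldehyde dehydrogenase genes, 7 in place of 1 folate and one-carbon genes and 5 in place of 3 genes of aldehyde and alcohol metabolism; the member genes numbered 3 in place of 2. The block changed no other of these counts by over 1.5 times. Centring on 6 measured reference genes moved the median change of all genes from 0.03 to -0.36 and gave 570 calls, 132 higher and 438 lower, in place of 316 higher and 49 lower. Of these 6 genes 5 had positive changes and 1 was called higher. Their mean log2 level was 10.82 to 10.99 in light damaged and 10.37 to 10.72 in dark adapted retinas. By construction, centring on them therefore lowered the change of every gene by the same amount. Centring left 1 member gene and 1 member probe set, 1 retinoid gene (a fall), 0 folate and 0 aldehyde metabolism genes, and a median member change of -0.25. The changes were then 0.61 for Rdh10, 0.45 for Tgm2, 0.39 for Gldc, 0.91 for Aox1, 0.65 for Akr1b8, 0.33 for Maoa, 0.21 for Aldh18a1 and 0.10 for Mthfd1, and none of these 8 passed (limma adjusted p from 0.0505 to 0.586). Quantile normalization again left 1 member probe set and a median member change of 0.0202, and ended the calls of Tgm2 (limma adjusted p = 0.0605) and Maoa, with 66.9% of called genes higher in place of 86.6%. Averaging the probe sets of a gene gave 2 folate genes and a median member change of 0.028, and moved Aldh1l1 to 1.13. Keeping only genes at or above the lower quartile dropped Aldh1a2, by construction, and gave a median member change of 0.37 and a retinoic acid minus folate and detoxifying difference of 0.21 in place of -0.12. Leaving out probe sets with IDs ending in _x_at, _s_at or _a_at took the brighter Aldh1l1 probe set away: Aldh1l1 then stood at -0.0169, 1 member gene and 1 member probe set passed, 0 retinoid genes passed (Rdh10 had a limma adjusted p of 0.0746), the median member change was -0.0186 and the class difference 0.38. The alternatives chosen after seeing the data gave a class difference of -0.51 without Aldh2 and 0.34 without Aldh1l1. An intensity trend moved none of these counts by over 1.5 times.

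With 1 array left out, all genes called numbered 151 to 417 (212, 151 and 159 without light damaged replicate 1, 2 or 3, and 180 without dark adapted replicate 2), member genes 1 to 2, member probe sets 1 to 1, further aldehyde dehydrogenase genes 0 to 0, retinoid genes 0 to 3, folate genes 0 to 1 and aldehyde metabolism genes 1 to 3. The median member change was 0.034 to 0.26 and the class difference -0.30 to 0.0048. Where a value moved and no construction is named, the cause was not tested.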
